A study of Rattus norvegicus with 6 samples.

Results

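Genes of bile duct secretion were followed in fibrotic liver of rats after bile duct ligation and in normal liver. The 7 members were Sctr, Gpbar1, Cftr, Ano1, Slc4a2, Slc12a2 and Kcnn4, of 15443 genes that the array names. They were taken by symbol, through the RefSeq accession that the array gives for each probe, and 12 probes belonged to them. The fibrosis group was 3 livers with hepatic fibrosis induced by tying off the bile duct, and the normal group was 3 livers described only as normal. Strain, sex, age and the time after ligation are not given in the sources used here, nor whether the normal rats had a sham operation. One array of Cy3-labelled material was made per rat, so the replicates are animals.

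Cholangiocytes, the cells that line bile ducts, add fluid and bicarbonate to the bile that hepatocytes release. In the textbook scheme the hormone secretin binds its receptor on the cholangiocyte, cyclic AMP rises, the chloride channel CFTR opens towards the duct, and chloride that has left is taken back in exchange for bicarbonate. Potassium channels keep the membrane voltage that drives chloride out, and a sodium-potassium-chloride cotransporter loads the cell with chloride. Bile acids act on the same cells through the receptor TGR5, and calcium released by nucleotides in bile opens a separate, calcium-activated chloride channel.

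Signals are given as log2 values relative to the 75th percentile of the same array, so 0 is that percentile and each unit is a doubling. Each array held 58717 spots other than controls. The 75th percentile of the signal lay between 4840 and 6401 on the fibrosis arrays and between 3755 and 4386 on the normal arrays. Across 19731 tested probes, correlations between arrays were 0.931 to 0.964 within fibrosis and 0.982 to 0.989 within normal liver. All 6 arrays shared 1 slide and 1 scan. The scanner software marked between 18.8% and 35.2% of spots per array as outliers. Precision is limited by having 3 arrays per group.

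Of the 6 members that could be tested, 3 were higher in fibrotic liver and 0 were lower, each gene being represented by its brightest probe. Those 3 were Sctr, Cftr and Ano1. The limma test, adjusted over all tested probes, called 22.3% of the 10864 named genes at an adjusted p under 0.05, 14.7% higher and 7.62% lower. By probe, 5 of the 9 tested member probes were called higher and 0 lower, where 19.1% of all tested probes were called, 12.4% higher and 6.79% lower. The remaining 3 probes were too dim to test, among them the only Gpbar1 probe. The median log2 difference of the 6 tested members was 1.26, against -0.07 over all named genes tested. It was 1.99 without fibrosis array 3, but Gpbar1 was then counted as well, so that median is of a different set of genes. Without fibrosis array 3 Slc12a2 was called too. Gpbar1 then entered the test, through the 2 fibrosis arrays where it was above background, so its call there is not counted as a result. Without fibrosis array 1, normal array 1 or normal array 3 the called members numbered 2, Sctr and Cftr. Duct markers moved in the same livers: 9 of 12 tested cholangiocyte markers were higher and 0 lower. With marked outlier spots left out, those called higher numbered 4, but some markers, Krt19 and Cldn7 among them, then had no test. In a tissue block, more cells of a type and more RNA per cell cannot be told apart.

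The promoters of Sctr and Cftr are printed because these were the 2 members with the largest differences. RefSeq promoter sequences (GRCr8 assembly) were at hand for 6 of the 7 members, and Kcnn4 is named only. Each sequence runs 5′ to 3′ from 250 bases before the annotated start to 30 bases after it. The Sctr sequence is chr13:33680377-33680656 and that of Cftr is chr4:47527379-47527658, both on the plus strand. Capitals mark, on either strand, GTTAA, the start of the half-site bound by hepatocyte nuclear factor 1, or TGACATCA, a variant of the cyclic AMP response element.
Sctr: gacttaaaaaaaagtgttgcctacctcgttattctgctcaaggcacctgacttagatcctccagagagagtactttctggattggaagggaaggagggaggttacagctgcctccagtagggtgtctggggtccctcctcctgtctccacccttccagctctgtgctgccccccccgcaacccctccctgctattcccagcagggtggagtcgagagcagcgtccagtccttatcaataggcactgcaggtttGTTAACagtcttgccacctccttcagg
Cftr: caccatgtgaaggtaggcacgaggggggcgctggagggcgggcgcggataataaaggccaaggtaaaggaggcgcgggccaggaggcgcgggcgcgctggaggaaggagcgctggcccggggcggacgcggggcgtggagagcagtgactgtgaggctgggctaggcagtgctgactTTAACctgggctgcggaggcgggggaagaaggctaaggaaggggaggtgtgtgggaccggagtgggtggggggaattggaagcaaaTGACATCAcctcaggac
Sctr held GTTAA on both strands, overlapping, at positions 4 and 5 after the start. Cftr held it once on the minus strand, at -73, and held TGACATCA at position 14. Over 33469 promoters of the same length, searched on both strands, 23.9% held GTTAA, 4.2% held TGACATCA and 1.78% held the full cyclic AMP response element TGACGTCA. None of the 6 member promoters held TGACGTCA, and the other 4 held none of these motifs. The motifs were chosen after the sequences were seen, and a match is a description, not a binding site. G and C made up 55.0% of the Sctr sequence and 66.4% of that of Cftr, and the median promoter had 51.4%.

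Among the receptors, the secretin receptor Sctr showed the largest difference of the tested members. Its probe A_44_P309097 stood at 0.09, 0.45 and -1.07 on the 3 fibrosis arrays, against -5.22, -5.47 and -6.26 on the normal arrays. In unscaled signal these were 6830, 6620 and 2440 in fibrotic liver and 105, 98.8 and 49.2 in normal liver. Sctr was therefore dim in normal liver, though well above background on all 3 arrays there, and close to the 75th percentile in fibrotic liver. The groups were far apart, and fibrosis array 3 was the lowest of its group. Sctr rose by 5.47 ± 0.44 (SE, limma adjusted p = 0.000146), a 44.5-fold difference with a 95% interval of 4.46 to 6.49 on the log2 scale. It was called under all 16 alternatives that could test it, at 4.35 to 5.92.

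The Sctr probe has 2 spots per array. The software marked as outliers 5 of the 6 spots in fibrotic liver and 0 of the 6 in normal liver, so leaving out marked spots left Sctr without a test. The spots gave 5.82 and 5.13 separately. On normal array 3 they read -7.28 and -5.23, which was the largest SD between spots among the member probes. The part of these marks in this result was not tested.

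Gpbar1 encodes the bile acid receptor TGR5, which raises cyclic AMP and is known from cholangiocytes and macrophages. Its single spot (probe A_44_P557172) stood at -5.06, -4.24 and -6.43 on the fibrosis arrays and at -7.78, -7.90 and -7.89 on the normal arrays. It was well above background on fibrosis arrays 1 and 2 only. Set against the lowest signals that count as above background in normal liver, the fibrosis mean of Gpbar1 was 3.82-fold higher. Fibrosis array 3, not above background, entered that mean at its own signal, so the value is not a strict minimum. It also holds for the processed signals only. The log2 difference was 2.61 with them and 0.66 with normexp, a model-based background correction of the raw spot signals. The probe did not pass the filter on dim probes. Without that filter, limma gave an adjusted p of 0.0159 over 30367 probes.

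**Figure D1:**
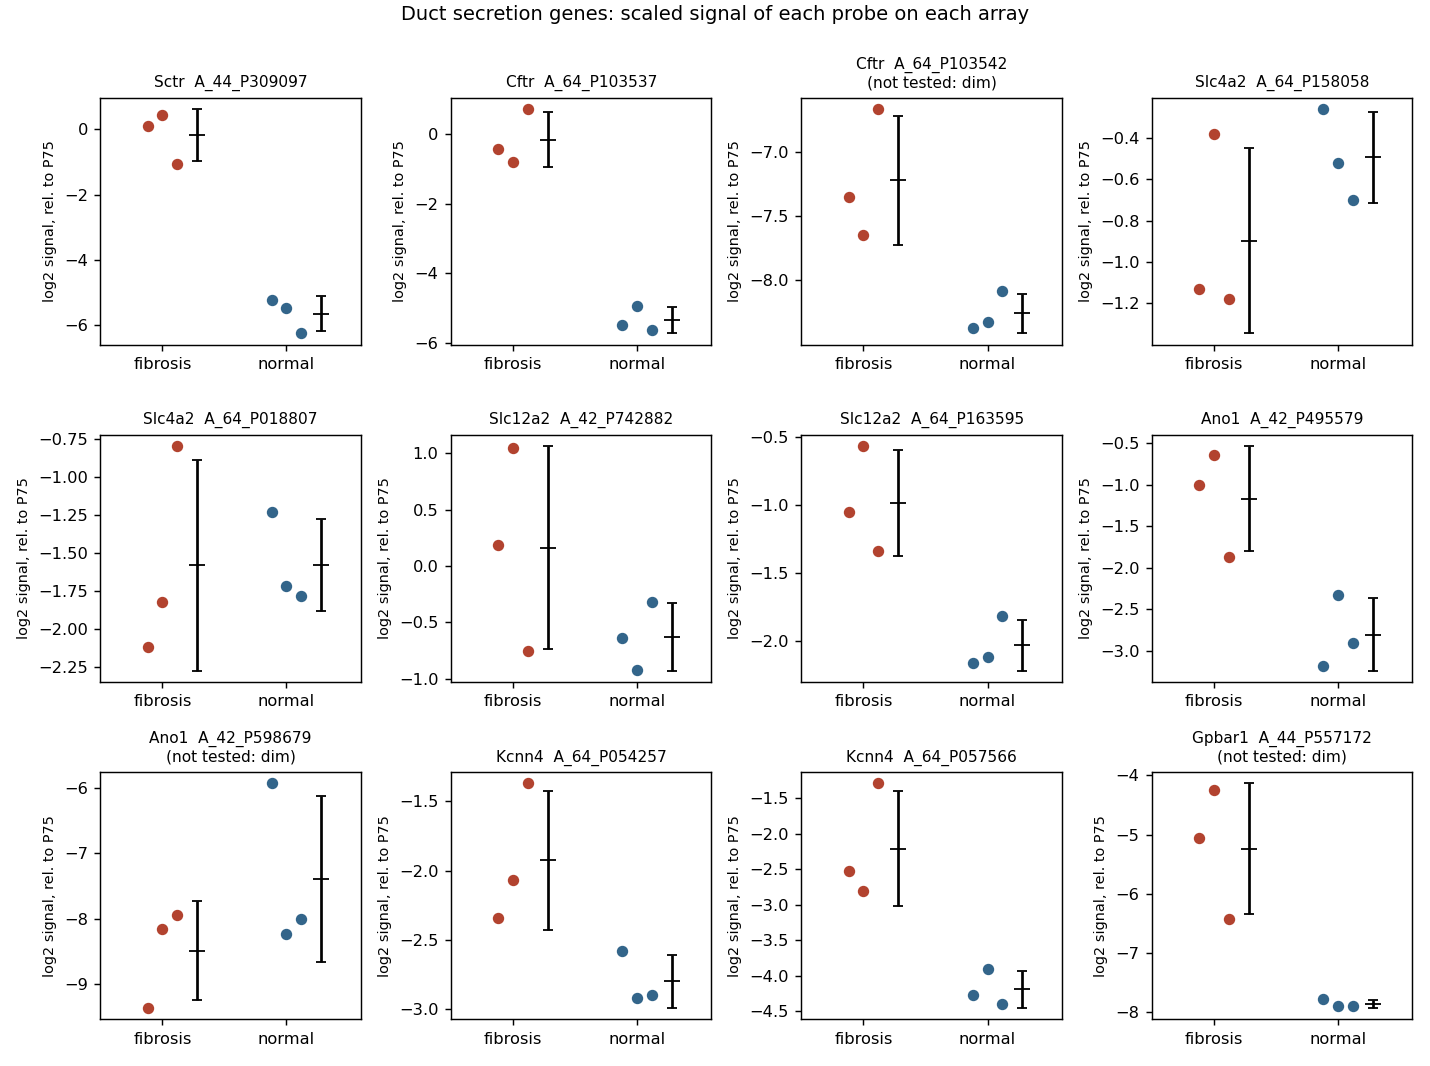
Scaled log2 signal (vertical axis, relative to the 75th percentile of the array) of all 12 member probes, with each dot 1 array and bars giving the mean and SD of a group (n = 3 each). Sctr and the bright Cftr probe have means of -0.18 and -0.16 in fibrosis, against -5.65 and -5.35 in normal liver, while the arrays of both Slc4a2 probes overlap between groups. Vertical scales differ between panels.

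The chloride channel gene Cftr differed nearly as much as Sctr. Its brighter probe A_64_P103537 stood at -0.42, -0.79 and 0.72 in fibrotic liver, against -5.49, -4.93 and -5.64 in normal liver. Here fibrosis array 3, the lowest for Sctr, was the highest of the 3. Cftr rose by 5.19 ± 0.41 (limma adjusted p = 0.000141), a 36.5-fold difference, and no spot of this probe was marked as an outlier. It was called under all 17 alternatives, at 4.26 to 5.53. A second probe, A_64_P103542, was not well above background on any of the 6 arrays, so no fold is given.

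Ano1 encodes the calcium-activated chloride channel TMEM16A. Its probe A_42_P495579, with 10 spots per array, stood at -1.0, -0.64 and -1.87 in fibrotic liver and at -3.18, -2.33 and -2.91 in normal liver. Every fibrosis array was above every normal array, with fibrosis array 3 the lowest of its group. Ano1 rose by 1.64 ± 0.38 (limma adjusted p = 0.0186), a 3.12-fold difference. The 10 spots taken singly gave between 1.47 and 1.79. Leaving out fibrosis array 1 ended the call (1.55, adjusted p = 0.0607), as did leaving out normal array 1 (1.45, 0.0724) or normal array 3 (1.59, 0.0787). Of its spots, 24 of 30 were marked as outliers in fibrotic liver and 8 of 30 in normal liver, and leaving those out gave 1.68 (0.0166). The second Ano1 probe, A_42_P598679, was above background on normal array 1 only and on no fibrosis array.

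Slc4a2 encodes AE2, the exchanger that releases bicarbonate into bile in return for chloride, and its 2 probes did not pass the test. The brighter, A_64_P158058, stood at -1.13, -0.38 and -1.18 in fibrotic liver and at -0.26, -0.52 and -0.70 in normal liver. The other, A_64_P018807, stood at -2.12, -1.82 and -0.80 in fibrotic liver and at -1.23, -1.72 and -1.78 in normal liver. The groups overlapped for both. The differences were -0.40 ± 0.29 (limma adjusted p = 0.394) and -0.0034 ± 0.37 (0.996). Their 95% intervals ran from -1.07 to 0.27 and from -0.86 to 0.85, so the arrays leave room for a change of Slc4a2 within those limits in either direction. The exchanger was bright in normal liver too, with signals of 2310 to 3250 for the brighter probe.

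Slc12a2 encodes NKCC1, the cotransporter that carries chloride into the cell from the blood side. Its bright probe A_42_P742882 stood at 0.19, 1.05 and -0.75 in fibrotic liver and at -0.64, -0.92 and -0.32 in normal liver. Fibrosis array 3 lay inside the normal range and the other 2 above it. The difference of 0.79 ± 0.44 did not pass (limma adjusted p = 0.256), and it passed without fibrosis array 3 (1.25, 0.0393). All 30 spots of this probe in fibrotic liver and all 30 in normal liver were marked as outliers. The dimmer probe A_64_P163595 stood at -1.05, -0.57 and -1.34 in fibrotic liver against -2.16, -2.12 and -1.82 in normal liver, with no overlap. It was called at 1.05 ± 0.28 (0.0316). Leaving out 1 array ended that call in 5 of 6 cases, all except fibrosis array 3, at adjusted p of 0.0566 to 0.119. The call was also lost with quantile normalization (0.9, limma adjusted p = 0.0659), the array median (0.69, 0.0907), no filter on dim probes (0.0691) and slide row as a block. Both probes pointed upward, by 1.73-fold and 2.07-fold.

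Kcnn4 encodes the intermediate-conductance, calcium-activated potassium channel, which is also known from T cells and macrophages. Its bright probe A_64_P054257 stood at -2.34, -2.07 and -1.37 in fibrotic liver and at -2.58, -2.92 and -2.90 in normal liver. The groups did not overlap, but the difference of 0.87 ± 0.30 did not pass (limma adjusted p = 0.0839). The dimmer probe A_64_P057566 stood at -2.53, -2.81 and -1.29 in fibrotic liver and at -4.27, -3.90 and -4.40 in normal liver. It was called at 1.98 ± 0.41 (0.0117), a 3.94-fold difference, and the call was lost without normal array 3 (1.88, 0.055). For each Kcnn4 probe 2 of 6 spots in fibrotic liver and 0 of 6 in normal liver were marked as outliers. On both Kcnn4 probes fibrosis array 3 was the highest array, as it was for Cftr. By brightest probe, 4 of the 6 tested members had groups that did not overlap, where 42.9% of all named genes tested did not. By probe these were 6 of 9, against 38.4% of all tested probes.

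**Figure D2:**
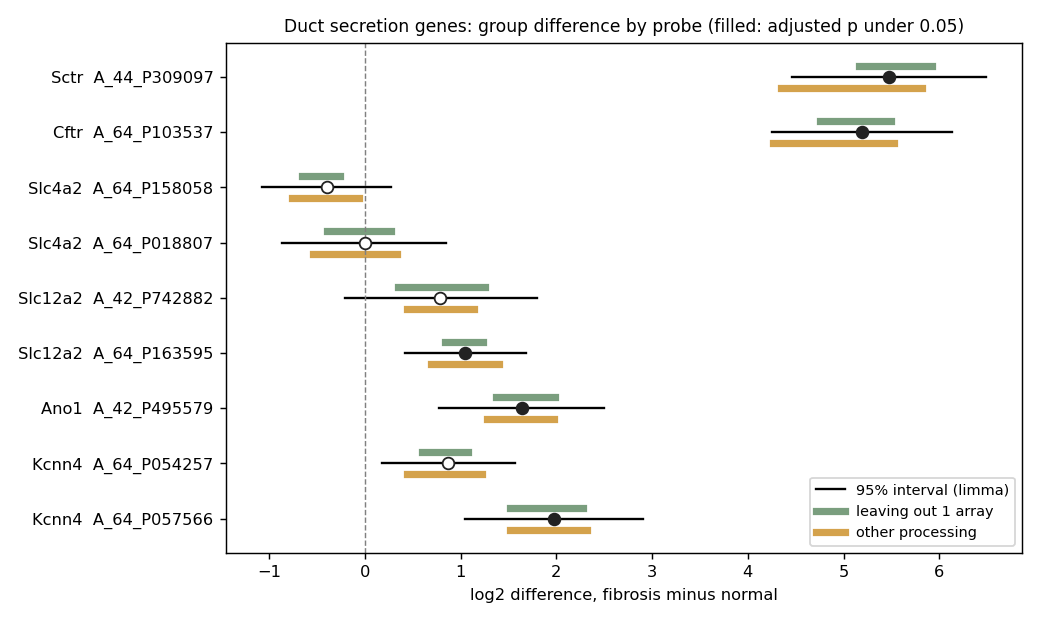
Log2 difference, fibrosis minus normal (horizontal axis), for the 9 tested member probes, with the 95% interval from limma as a thin line. Thick bars give the range when each array is left out (green) and under the other processing choices (ochre); the Sctr and Cftr ranges start at 4.35 and 4.26, while those of the second Slc4a2 probe span 0.

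The members did not keep 1 order over the fibrotic livers. Fibrosis array 2 was the highest and fibrosis array 3 the lowest for Sctr, Gpbar1, Ano1 and both Slc12a2 probes. For Cftr and both Kcnn4 probes fibrosis array 3 was the highest. The genes whose profile over the 6 arrays was nearest to that of Sctr were H19, an imprinted non-coding RNA, and the tight junction genes Cldn7 and Cldn4. Their root mean square differences from Sctr, after centring each gene, were 0.33, 0.34 and 0.37 log2 units. H19 differed by 4.99 ± 0.57, Cldn7 by 5.26 ± 0.39 and Cldn4 by 5.20 ± 0.43 between the groups. Nearest to Cftr were Gucy2c, the receptor of guanylin peptides that acts upstream of CFTR in gut epithelium, at 0.39, the epithelial GTPase gene Rab25 at 0.45, and Pla2g7, a secreted phospholipase, at 0.49. Gucy2c and Rab25 were not well above background on any normal array and passed the filter on dim probes through the fibrosis arrays alone. By the processed signals Gucy2c was at least 14.5-fold higher in fibrotic liver, and Rab25 stood 27.4-fold higher. The normal signals of Rab25 already lay above the lowest signal that counts as above background. Its value is therefore the plain fold difference and not a bound. With normexp the log2 differences of Gucy2c and Rab25 were 2.31 and 2.97, below those values. Pla2g7 differed by 4.44 ± 0.30. The likeness was measured over 6 arrays in 2 groups that stand apart, so genes of like group difference come out as alike.

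Markers of the cell types a liver block can hold were read on the same arrays. Over all named genes tested, 14.7% were higher and 7.62% lower, at a median of -0.07. Of the 16 cholangiocyte markers listed, 12 were tested, 9 were higher and 0 lower, at a median of 3.40. With marked outlier spots left out, 4 were called higher, but not all 12 could then be tested. Krt19 and Cldn7 were among those without a test. Their mean log2 level was 0.59 to 1.3 on the fibrosis arrays and -2.27 to -2.03 on the normal arrays. The duct keratin Krt19 rose by 3.49 ± 0.25 (limma adjusted p = 0.000104). The brightest markers of that list, Krt18 (-0.20 ± 0.30) and Cdh1 (0.40 ± 0.23), did not pass. Both are shared with hepatocytes, and the part of that in their values was not tested. Krt7 was above background on all 3 fibrosis arrays and 1 normal array.

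Hepatocyte markers were lower in 4 of 13 genes and higher in 0, at a median of -0.82, with a mean level of 1.70 to 1.96 on the fibrosis arrays and 2.46 to 2.85 on the normal arrays. All 13 were above background on every array. The number of lower hepatocyte markers was 10 with scaling by the array median, 7 with eBayes trend, 2 with quantile normalization or cyclic loess (medians -0.42 and -0.38), and 0 with scaling by the E1A spike-in control spots, with marked spots left out or with slide row as a block. It was 2 when fibrosis array 1 was left out, 1 when normal array 2 was, and 0 when normal array 3 was. The brightest, Serpina1 (-0.61 ± 0.23) and Apoa1 (-0.48 ± 0.24), did not pass. Neither could be tested with marked spots left out, so the count of 0 in that setting covers fewer than the 13 genes. Among macrophage markers, which bear on Gpbar1 and Kcnn4, 1 of 13 was higher and 1 lower, at a median of 0.30. Higher genes numbered 2 without fibrosis array 2, 0 without normal array 3 and 3 with cyclic loess or eBayes trend, and lower genes 0 without normal array 2 or 3. Of this list the brightest, C1qa and C1qb, stood at 0.0036 ± 0.24 and 0.11 ± 0.22. The mean level of the macrophage list was 0.37 to 0.79 on the fibrosis arrays and -0.10 to 0.46 on the normal arrays. Of 9 T cell markers tested, 0 passed in either direction, at a median of 0.43, and 1 was higher when any 1 fibrosis array was left out. Their mean level was -3.26 to -2.73 on the fibrosis arrays and -3.58 to -3.21 on the normal arrays. The brightest were Cd3d (0.56 ± 0.29) and Cd3g (0.97 ± 0.31). Cd3e and Cd5 were above background on some arrays only and Cd28 on none.

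Of 7 mast cell markers tested, 3 were higher and 1 lower, at a median of 1.27, with a mean level of -2.86 to -1.95 in fibrosis and -3.75 to -3.08 in normal liver. Without normal array 2, 1 was higher. Among the 3 higher were Cma1 (3.36 ± 0.42, limma adjusted p = 0.00121) and Ms4a2 (1.29 ± 0.34, 0.032). Hdc (-0.46 ± 0.49) and Tpsb2, the 1 that fell (-0.94 ± 0.26, limma adjusted p = 0.0365), were the brightest. The Tpsb2 call held without fibrosis array 2 and was lost when any other array was left out (adjusted p = 0.0574 to 0.132). Kit was above background on some arrays only. Of 8 smooth muscle and myofibroblast markers, which bear on Ano1, 3 were higher and 0 lower, at a median of 0.56, and 1 was higher without normal array 1, 2 or 3. Their mean level was -1.62 to -0.77 in fibrosis and -2.36 to -2.11 in normal liver. The 3 higher were Des (3.01 ± 0.29, limma adjusted p = 0.000314), Acta2 (2.08 ± 0.57, 0.0377) and Myl9 (1.01 ± 0.30, 0.0483). The brightest, Mylk (-0.10 ± 0.34) and Tagln (1.70 ± 0.53), did not pass, and Lmod1 was above background on some arrays only. Of 5 red cell markers, 0 were higher and 1 was lower, at a median of -0.58, with a mean level of 0.51 to 1.35 in fibrosis and 1.32 to 1.5 in normal liver. Hbb fell by 0.88 on the log2 scale (SE 0.24, limma adjusted p = 0.0346), a call that held only without fibrosis array 2 or 3 among the 6 arrays left out in turn. Hba-a1 stood at -0.58 ± 0.40, and Epb42 and Rhag were above background on some arrays only. The part of these cells in the member results was not tested.

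Set against the duct keratin Krt19 on the same array, the differences of Sctr and Cftr were above 0 and those of the other tested members below 0, in a design too small to pass a threshold of 0.05. Sctr minus Krt19 was -0.56, -0.42 and -2.26 on the fibrosis arrays and -2.72, -3.02 and -3.46 on the normal arrays, a difference of 1.99. Cftr minus Krt19 was -1.07, -1.66 and -0.47 in fibrotic liver and -2.98, -2.47 and -2.85 in normal liver, a difference of 1.70. The other 7 member probes differed by between -3.89 (Slc4a2) and -1.51 (the dimmer Kcnn4 probe). For all 9 probes the groups were separate and the two-sided exact permutation p was 0.1, the smallest that 3 against 3 arrays can give, and 0.1 after Benjamini-Hochberg adjustment over the 9. With normexp background correction the differences of Sctr and Cftr were 0.87 and 0.77, and the exact permutation p of Sctr was then 0.4, with that of the other 8 probes at 0.1. A ratio within an array shows unequal change and nothing more.

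**Figure D3:**
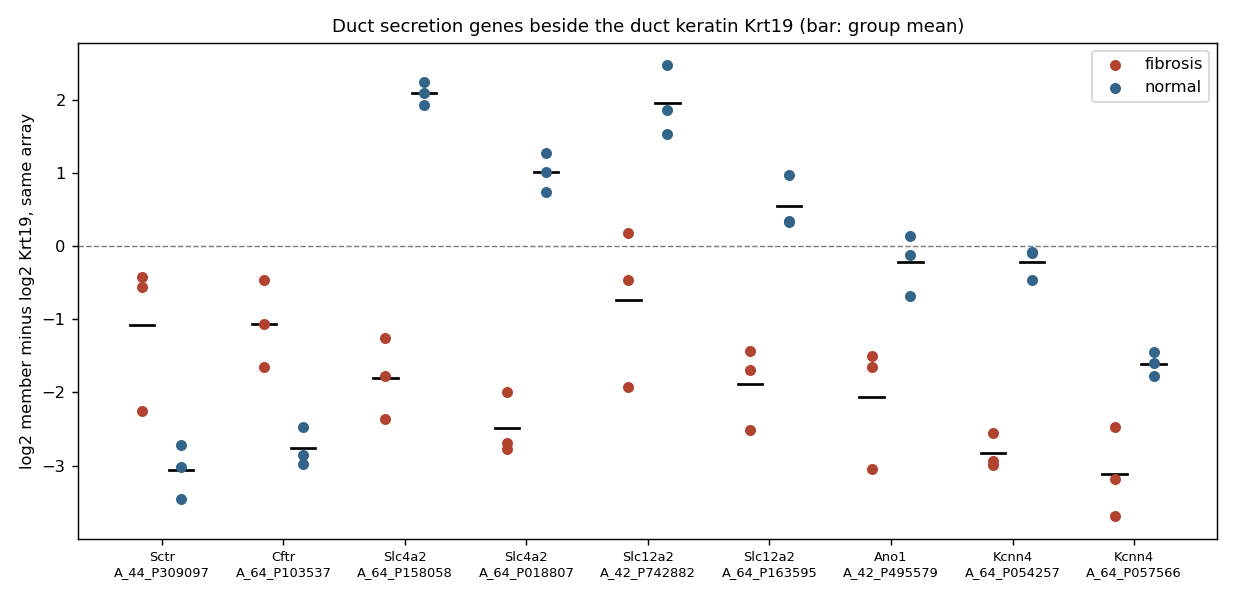
Log2 signal of each tested member probe minus that of the duct keratin Krt19 on the same array (vertical axis), fibrosis in red and normal in blue, 3 arrays each with the group mean as a bar. Sctr and Cftr lie higher in fibrotic liver (means -1.08 and -1.07, against -3.07 and -2.77 in normal liver), and the other 7 probes lie lower.

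The rest of the secretory machinery was followed in 5 lists. Their counts stand beside 14.7% higher and 7.62% lower over all named genes tested, at a median of -0.07. Secretin itself (Sct) was not analysed here. Of 20 tested genes of secretin and cyclic AMP signalling, 7 were higher and 1 was lower, at a median of 0.55. Sstr3, a receptor for somatostatin, the hormone that opposes secretin, stood at -1.52, -0.85 and -0.64 in fibrotic liver and at -3.82, -3.65 and -4.71 in normal liver. It rose by 3.06 ± 0.37 (limma adjusted p = 0.000923). Ezr (ezrin, which ties CFTR complexes to the cytoskeleton) rose by 1.75 ± 0.35 (0.011), a call lost without normal array 3 (1.72, 0.0503). The adenylyl cyclase gene Adcy7 was called lower at -0.95 ± 0.28 (0.0464), but its dimmer probe differed by 1.01 and the call was lost whichever array was left out (adjusted p = 0.0679 to 0.201). The number of higher genes in this list was 2 with slide row as a block, 2 without normal array 3, 4 without normal array 1 and 4 with the array median.

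Of 14 genes of calcium and nucleotide signalling, which lies upstream of Ano1, 6 were higher and 1 was lower, at a median of 0.49. Itpr3, the calcium release channel under the duct-facing membrane of cholangiocytes, was above background on 3 fibrosis arrays and 1 normal array. Its probe thus passed the filter on dim probes through the fibrosis arrays alone. Itpr3 rose by 2.53 ± 0.37 (limma adjusted p = 0.00269). With normexp it stood at 0.86 (0.0677) and was not called. Entpd2, an enzyme that breaks down nucleotides outside the cell, rose by 2.21 ± 0.26 (0.000823), and its other 2 probes gave 1.71 and 0.23. Nt5e, which makes adenosine, was called lower at -1.01 ± 0.25 (0.0269). That call was lost without fibrosis array 2 (-0.88, 0.0529), normal array 2 (-0.95, 0.112) or normal array 3 (-0.92, 0.132), and with E1A scaling (-0.66, 0.291). With slide row as a block 1 gene of this list was higher.

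Among 16 other chloride channels, cotransporters and their regulators, 4 were higher and 1 was lower, at a median of 0.27. Stk39, the kinase SPAK that activates NKCC1, stood at -2.06, -1.48 and -2.83 in fibrotic liver and at -5.0, -4.58 and -5.11 in normal liver, and rose by 2.78 ± 0.37 (limma adjusted p = 0.00154). Clca4 rose by 1.76 ± 0.36 (0.0113), or 0.60 and not called with normexp (0.129). It was above background on 3 fibrosis arrays and 2 normal arrays, so it passed the filter on dim probes through the fibrosis arrays alone. Slc12a3, the thiazide-sensitive sodium chloride cotransporter of kidney, fell by 2.24 on the log2 scale (SE 0.33, 0.00265). With normexp 1 gene of this list was higher, as with slide row as a block, and 2 were without normal array 2 or normal array 3. When a probe had to be well above background on all 6 arrays, 2 were higher.

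Of 12 tested genes of bicarbonate and proton transport, 1 was higher and 1 was lower, at a median of 0.22 that turned to -0.14 with the array median and -0.05 with normexp. The 1 that rose was Slc4a3, the anion exchanger AE3 of the same family as Slc4a2. It stood at -2.60, -2.72 and -2.98 in fibrotic liver and at -6.07, -6.02 and -6.57 in normal liver, where 1 of 3 arrays was above background. The probe thus passed the filter on dim probes through the fibrosis arrays alone. Slc4a3 rose by 3.45 ± 0.26 (limma adjusted p = 0.000113), or by 2 with normexp. Slc26a1, a sulfate and anion exchanger of hepatocytes, was called lower at -0.94 ± 0.24 (0.0301), and the call was lost with quantile normalization (-0.66, 0.0952), cyclic loess (-0.62, 0.109) and E1A scaling (-0.60, 0.205), and when any array other than fibrosis array 2 or 3 was left out. The bicarbonate importer Slc4a4 (0.71 ± 0.23, adjusted p = 0.0695) and the carbonic anhydrase Car2 (0.87 ± 0.27, 0.0562) did not pass; both were picked for their role after their values were seen. With quantile normalization and with cyclic loess 3 genes of this list were higher and 0 lower, and without fibrosis array 1 or 2 the higher genes numbered 2. When a probe had to be well above background on all 6 arrays, 0 were higher.

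Of 15 potassium channel and sodium pump genes, 6 were higher and 0 lower, at a median of 0.90. Kcne3, the channel subunit that pairs with Kcnq1 in secretory epithelia, stood at -3.36, -3.58 and -3.36 in fibrotic liver. It was not well above background on any normal array and was at least 13.4-fold higher in fibrotic liver (limma adjusted p = 3.7e-05). The probe passed the filter on dim probes through the fibrosis arrays alone, and with no filter the adjusted p was 0.000143. With normexp its log2 difference was 1.79, below that bound, and it was still called (0.000672). Fxyd3, a small regulator of the sodium pump, stood at 1.82, 1.98 and 1.32 in fibrotic liver and at -2.54, -2.0 and -2.82 in normal liver. It rose by 4.16 ± 0.31 (0.000109), and its second probe gave 2.89.

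**Figure D4:**
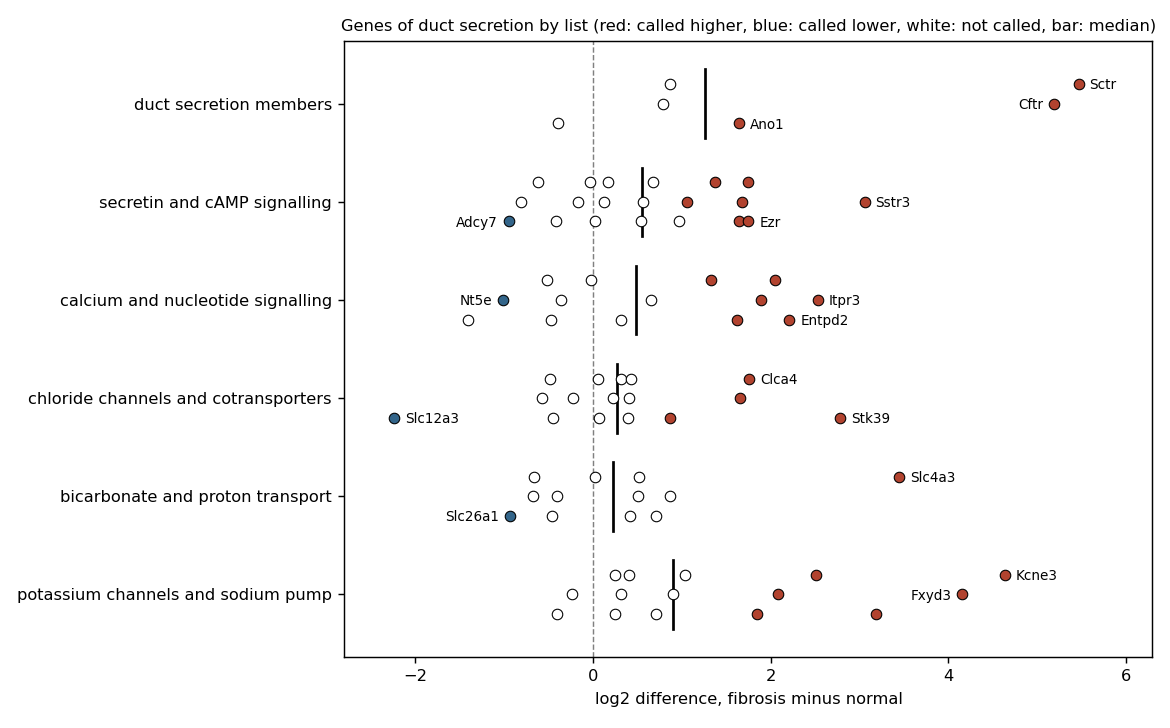
Log2 difference, fibrosis minus normal (horizontal axis), of each tested gene by list, 1 dot per gene at its brightest probe, with list medians as bars. The members' median is 1.26, and the medians of the other lists run from 0.22 (bicarbonate and proton transport) to 0.90 (potassium channels and sodium pump).

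The fibrosis arrays were not spread evenly over the slide. Fibrosis array 1 lay in the first row together with the 3 normal arrays, while fibrosis arrays 2 and 3 lay in the other. With slide row as a block, which rests the comparison on fibrosis array 1, Sctr stood at 5.74 and Cftr at 4.93, both still called. Ano1 (1.81, limma adjusted p = 0.133), the dimmer Slc12a2 probe (0.98, 0.251) and the dimmer Kcnn4 probe (1.66, 0.182) kept their direction and were not called.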

How the data were processed

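The authors deposited 1 Agilent Feature Extraction file per array (version 11.5.1.1, 1 colour), per the file headers. The processed signal is an intensity on a linear scale, background-subtracted and detrended within the array, per the file headers. The scanner's marks for spots above background, saturated (0 spots) or outlying came with the intensities in the deposited files.

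Every spot other than controls was kept, since leaving out spots marked as outliers removes many bright probes (12620 probes could then be tested, against 19731). Signals were put on the log2 scale, minus the 75th percentile of the array, and averaged over the spots of a probe. The test took in probes with at least 0.5 of their spots well above background on each array of either group. Accessions were matched without versions to RefSeq genes (GRCr8), which named 18355 of 30367 probes. Groups were compared by probe with limma 3.58.1 (R 4.3.3, lmFit and eBayes), and p-values of all tested probes were adjusted together by Benjamini-Hochberg. A gene stands for its tested probe of highest mean. The fit was also tested on simulated data for this comparison, with 200 of 19731 probes changed. It recovered 87% of changes of 3 log2 units and 51% of those of 1.5, with 11 false calls. In these data 19.1% of tested probes were called, so the simulated rates need not hold here.

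For a bound ("at least"), each array of the dim group took the lowest signal above background or the probe's signal, whichever was higher, and its mean was set under the bright group's mean. Named are all member probes; in each pathway list up to 2 called genes in each direction; in each marker list the 2 brightest and those not above background on all arrays (1 such marker is not reported here); and the 3 genes nearest to Sctr and to Cftr in profile. Some called mast cell and smooth muscle markers were named as well, after their values were seen. The members and lists were chosen with earlier results of these data known. The alternatives were normexp background correction (offset 50, on spot medians), quantile, median, cyclic loess and E1A control scaling, marked spots left out, 2 other filters, eBayes with trend, 1 probe per gene, slide row as a block, and each array left out.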

Additional observations from a re-analysis of the deposited data

How the results depend on the processing

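Sctr and Cftr were called higher under every alternative that could test them, and no tested member was called lower under any. Called members numbered 3, with 4 under E1A scaling and with no filter on dim probes, 2 with marked outlier spots left out (Sctr then had no test) and with slide row as a block, and 2 to 5 when 1 array was left out (5 counts Gpbar1, testable only without fibrosis array 3 or without the filter). Ano1 lost its call with slide row as a block (1.81) and ranged from 1.37 to 1.99 when 1 array was left out. The bright Kcnn4 probe gained a call under E1A scaling (1.22), and the bright Slc12a2 probe ranged from 0.35 to 1.25 when 1 array was left out. The second Slc4a2 probe changed sign under E1A scaling (0.34) and ranged from -0.39 to 0.27 when 1 array was left out. Relative to Krt19, normexp gave 0.87 for Sctr, 0.77 for Cftr and -3.04 for the bright Kcnn4 probe.

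The called probes, 2439 higher and 1339 lower, became 1020 and 178 with slide row as a block. Lower probes numbered 3884 with the array median, 326 with E1A scaling, 610 with marked outlier spots left out and 799 with no filter. When 1 array was left out there were 1514 to 2851 higher and 450 to 1620 lower probes. Scaling by the array median put the median of all named genes at -0.42, and E1A scaling put it at 0.28. The bicarbonate list's median changed sign with normexp (-0.05), the array median (-0.14), the filter on all 6 arrays (-0.20) and slide row as a block (-0.07), and ranged from -0.02 to 0.44 when 1 array was left out. Those of chloride channels (-0.09) and macrophage markers (-0.05) changed sign with the array median.

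Marker genes near 0 also changed sign. These were Krt18 (quantile 0.15, cyclic loess 0.20, E1A 0.15), Mylk (quantile 0.14, cyclic loess 0.20, E1A 0.24; -0.46 to 0.13 by array), Apoa1 (quantile 0.04, cyclic loess 0.09) and Serpina1 (cyclic loess 0.0073). C1qa (normexp -0.01, array median -0.35, slide row -0.06; -0.15 to 0.13 by array) and C1qb (array median -0.25, slide row -0.05) did so too. The cause of these shifts was not tested. No paired analysis was possible because the groups are different rats and replicate numbers were given here in record order, so that a shared number names arrays and pairs nothing. Signal near background limits Gpbar1 and the dim probes of Cftr and Ano1. The normal signals of Sctr (49.2 to 105) and of the bright Cftr probe (75 to 144) were low too. With normexp Sctr differed by 4.35 and Cftr by 4.26, against 5.47 and 5.19 in the main setting.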
